A study of Mus musculus with 7 samples.

Results

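The 48 genes described here encode the mitotic kinases and cyclins, the spindle checkpoint, the chromosomal passenger complex, the anaphase-promoting complex (APC/C), the kinetochore and the motors of division. They were taken from a list of gene symbols matched through Ensembl IDs, and all 48 were found among the 39179 genes of the deposited table. The cells were LSK cells, which are bone marrow cells without lineage markers and with Sca-1 and Kit on the surface and include blood stem cells and multipotent progenitors. They were sorted from C57/BL6 mice aged 7 weeks. The 3 Jmjd1c libraries came from Jmjd1c f/f Vav1Cre mice, where both floxed copies of Jmjd1c are open to a Cre recombinase driven by the Vav1 promoter throughout the blood lineages. The 4 control libraries came from mice with Vav1Cre alone, so Cre is common to both groups. JMJD1C belongs to the KDM3 family of JmjC-domain proteins, known for demethylation of histone H3 lysine 9. The labels do not state that each library is a separate animal, so p-values measure how far these libraries spread, which may be technical.

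Entry into mitosis is driven by cyclin-dependent kinase 1 with cyclins A and B, while the Polo-like and Aurora kinases build the spindle. The spindle checkpoint holds the APC/C ubiquitin ligase inactive until every kinetochore is attached. The APC/C with its activator CDC20 then marks securin and cyclin B for destruction, which frees separase to part the sister chromatids, and with the activator CDH1 (gene Fzr1) it keeps mitotic proteins low in the next G1 phase. Most stem cells of the LSK fraction are quiescent and its multipotent progenitors cycle, so transcripts of this programme in bulk RNA reflect both the number of dividing cells and the RNA in each. Fewer cells of a type and less RNA per cell cannot be told apart in these data.

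Values, called normalized read counts, are the authors' read counts over the size factor of the library. Each library held 4416762 to 6253793 recovered reads in the Jmjd1c group and 4303712 to 6436519 in the control group. Jmjd1c itself had 294, 244 and 254 normalized read counts in Jmjd1c libraries 1 to 3, against 458, 466, 516 and 512 in control libraries 1 to 4. It fell by 0.89 ± 0.09 on the log2 scale (SE; limma, adjusted p = 0.00407), and the groups did not overlap. The count covers all exons, so what remained of it is no measure of function. Of the markers that define the sort, Kit was at 5880 to 7268 in Jmjd1c and 4778 to 6700 in control libraries, and Ly6a, which encodes Sca-1, was at 728 to 839 in Jmjd1c and 694 to 915 in control libraries. Of 10 marker lists of LSK and other blood cells, 3 had a lower summed value in every Jmjd1c library than in every control library. Markers of mast cells and basophils summed to 2442 to 4833 in Jmjd1c and 5908 to 9133 in control libraries. Those of mature neutrophils summed to 6898 to 9917 in Jmjd1c and 9939 to 13382 in control libraries, and those of B cells to 480 to 522 in Jmjd1c and 577 to 668 in control libraries. Megakaryocyte markers were the other way round, with 3122 to 3468 in Jmjd1c and 2690 to 3037 in control libraries. Of the tested genes of those lists, 1 of 7 passed the threshold given below for mast cells and basophils, 0 of 9 for neutrophils, 0 of 6 for B cells and 1 of 8 for megakaryocytes. In lists whose sums overlapped, 2 of 10 granulocyte-monocyte progenitor genes fell, Ly6c2 by 0.80 and Ctsg by 0.46 on the log2 scale, and 1 of 9 plasma cell genes, Igha, fell by 2.29. The progenitor list summed to 23891 to 28680 in Jmjd1c and 26277 to 31968 in control libraries, and the plasma cell list to 9978 to 30271 in Jmjd1c and 19029 to 29136 in control libraries. None of the tested LSK, erythroid, macrophage or T and NK cell markers passed. No marker was at 0 in all 7 libraries, although Ly6g, a defining neutrophil antigen, had 0 to 1.03 in Jmjd1c and 0 to 1.21 in control libraries. Control 4 stood apart by macrophage markers, which summed to 9352 there, against 2109 to 3655 in the Jmjd1c and 2331 to 3314 in the other control libraries. The part of these other cells in the results below was not tested.

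Of the 48 mitotic genes, 4 rose in Jmjd1c cells and 0 fell. The ones that rose were Cdc20 and Anapc5 of the anaphase machinery and Aurkb and Incenp of the chromosomal passenger complex, by 0.32 to 0.65 on the log2 scale. The other 44 did not pass the threshold, among them the cyclins and Cdk1, every checkpoint gene and every kinetochore gene. The test was limma on log2(value + 1) over the 12813 genes that reached 10 in 3 or more libraries, with Benjamini-Hochberg adjustment over all of them and a threshold of 0.05. All 48 members passed that filter in all 7 libraries, the lowest single value being 19.8 for Ube2s in control 3. Of all tested genes 1.51% were called higher and 0.289% lower, and the 4 members called higher are 8.33% of the list. The list was chosen with earlier results of these data known, so its shares here and below are descriptions and not a test. In 12 members (25%) every Jmjd1c library was above every control library and in 0 members below it. Over all tested genes 9.74% had every Jmjd1c library above every control library and 7.1% below. The members' median log2 fold change was 0.09, with 36 of 48 above 0, and that of all tested genes was -0.01, with 48.5% above 0. An unadjusted p under 0.05 was found for 11 of the 48 members (all higher in Jmjd1c) and for 19.7% of all tested genes (11.9% higher and 7.84% lower), so the members' total is near that share. On recovered reads edgeR called the same 4 members and DESeq2 called 7, all higher, adding Ccna2, Fzr1 and Ube2c. Calls over the whole table and among the members changed when 1 library was left out. Without Jmjd1c 2, Jmjd1c 3, control 2 or control 3, limma called 3, 9, 3 and 3 genes in all and 0 members (9, 12, 11 and 9 members at an unadjusted p under 0.05). Without control 1 or control 4 it called 68 and 202 genes with 2 members each time (Aurkb and Cdc20), and without Jmjd1c 1 it called 624 genes with 7 members. Over these fits the log2 fold change of Cdc20 was 0.54 to 0.75, that of Aurkb 0.40 to 0.46, that of Incenp 0.40 to 0.54 and that of Anapc5 0.28 to 0.37. The median was 0.04 without control 4.

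**Figure D1:**
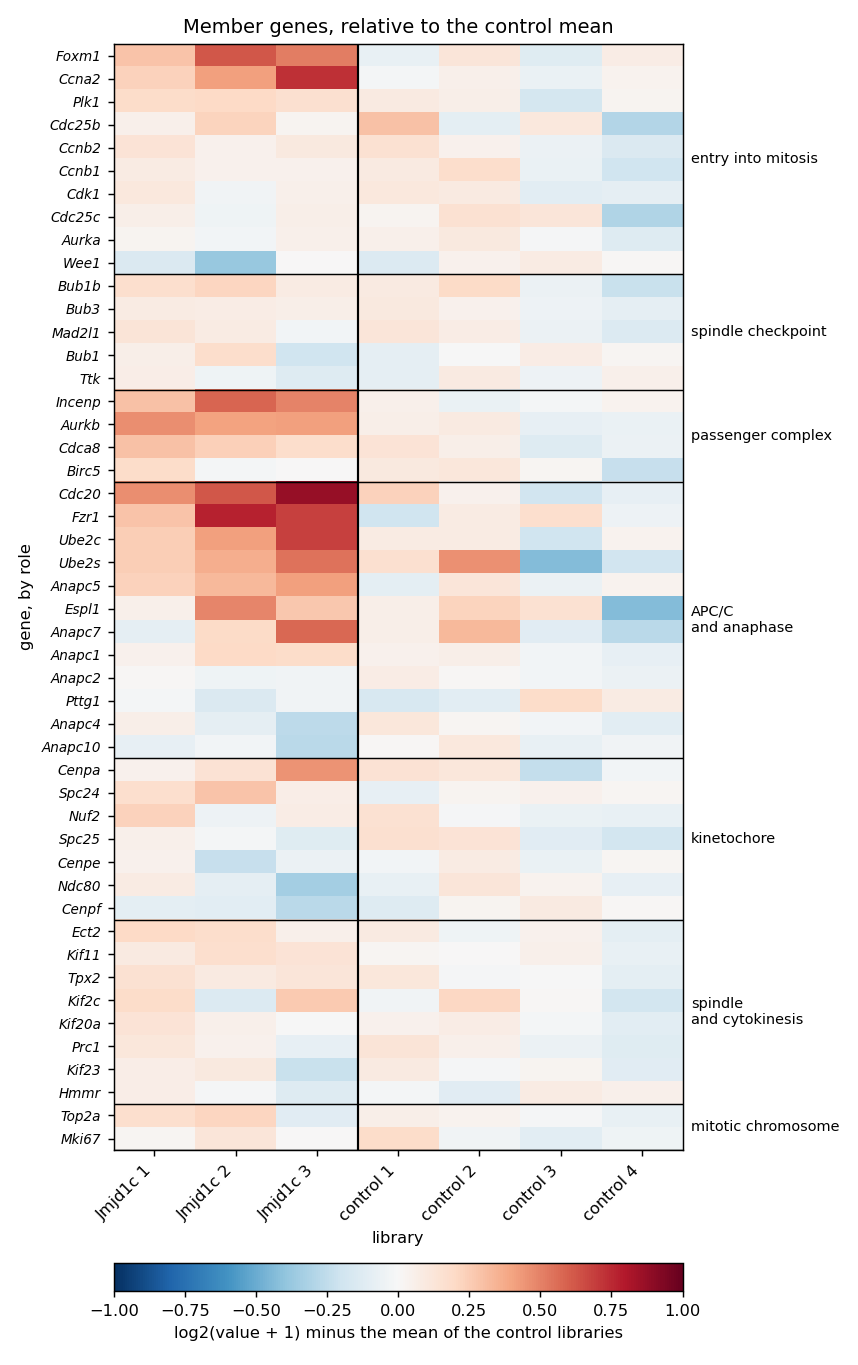
Each row is 1 of the 48 member genes, grouped by role, and each column a library, with the 3 Jmjd1c libraries left of the line and the 4 control libraries right of it; colour is log2(value + 1) minus the mean of the control libraries. Cdc20, Fzr1, Ube2c, Ccna2, Incenp and Aurkb are red in all 3 Jmjd1c libraries, most other genes are pale, and control 4 is blue for most genes.

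By the median over all 48 genes, the libraries of the groups did not separate. The median deviation of the 48 genes from their control means was 0.10, 0.09 and 0.05 on the log2 scale in Jmjd1c 1 to 3, against 0.06, 0.06, -0.04 and -0.08 in controls 1 to 4. Jmjd1c 3 was thus below controls 1 and 2, and control 4 was lowest. By role, the passenger complex was the group whose medians kept apart, with 0.29, 0.32 and 0.30 in Jmjd1c libraries and 0.08, 0.07, -0.05 and -0.06 in control libraries. The APC/C and anaphase group had 0.06, 0.26 and 0.34 in Jmjd1c libraries and 0.06, 0.08, -0.04 and -0.07 in control libraries, so Jmjd1c 1 lay within the control range.

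Among the 10 genes of entry into mitosis, 0 were called in limma or edgeR and 1, Ccna2, in DESeq2. In 3, Ccna2, Foxm1 and Plk1, the groups did not overlap and the unadjusted limma p was under 0.05. Ccna2, the cyclin of S phase and early mitosis, had 458, 519 and 648 normalized read counts in Jmjd1c libraries, against 386, 406, 373 and 399.6 in control libraries. The log2 fold change, 0.46 ± 0.11, missed the threshold (limma, adjusted p = 0.0538). Jmjd1c 3 was the highest of the 3 and Jmjd1c 1 the lowest, and 510 exon bases of Ccna2 lie opposite Exosc9, whose log2 fold change was 0.07. Foxm1, the transcription factor of many G2 and M phase genes, had 85.2, 108 and 99.8 in Jmjd1c libraries and 66.4, 76.0, 64.1 and 73.5 in control libraries (0.47 ± 0.14; limma, adjusted p = 0.111). Plk1, the Polo-like kinase of spindle assembly and cytokinesis, had 524, 529 and 515 in Jmjd1c libraries and 489, 480.3, 408 and 469 in control libraries (0.18 ± 0.08; limma, adjusted p = 0.233), and 0.09 after a correction for transcript GC content and length. The other 7 genes overlapped between groups. Cdk1, the master kinase of mitosis, had a log2 fold change of 0.04 with a 95% interval of -0.13 to 0.21, and Ccnb1, its main cyclin, one of 0.06 with an interval of -0.13 to 0.25. Aurka, the Aurora kinase of the spindle poles, had 0.02 (-0.15 to 0.19), and Wee1, the kinase that inhibits CDK1, had -0.17 (-0.46 to 0.11), the lowest of all 48. The signs of Ccnb1 and Aurka turned in some alternatives. The phosphatases Cdc25b and Cdc25c, which activate CDK1, had 238 to 273 and 140.1 to 150.6 in Jmjd1c libraries, within 191 to 286 and 117 to 161 in control libraries.

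Per kilobase of exon and scaled to 1000000 per library, the highest level of this group and of all 48 genes was that of Ccnb2, the second B-type cyclin, at 352 ± 5.19 in Jmjd1c and 318 ± 34.98 in control libraries (SD, n = 3 and 4). The length was that of all bases in any annotated exon of the gene, 1531 for Ccnb2 and 5141 for Ube2s. Ranks by level per kilobase therefore depend on the annotated transcripts as well as on the reads. In normalized read counts Ccnb2 had 992, 929 and 966 in Jmjd1c libraries and 1006, 933, 866 and 819 in control libraries. The groups overlapped, with control 1 the highest of all, and the difference was 0.09 ± 0.08 on the log2 scale (limma, adjusted p = 0.542). Its promoter is shown as an example of the pair of elements common in this gene class. The cell cycle genes homology region (CHR), with the core TTTGAA or TTCGAA, is bound by the DREAM and MuvB complexes, which hold such genes silent outside G2 and M phase and then activate them together with B-MYB and FOXM1. CCAAT boxes, bound by NF-Y, often stand upstream of it. The sequence is RefSeq's on GRCm38.p6, from 250 bases before to 50 bases after the annotated start, at chr9:70421505-70421804 on the minus strand, with CHR cores and CCAAT boxes on either strand in capitals.
Ccnb2: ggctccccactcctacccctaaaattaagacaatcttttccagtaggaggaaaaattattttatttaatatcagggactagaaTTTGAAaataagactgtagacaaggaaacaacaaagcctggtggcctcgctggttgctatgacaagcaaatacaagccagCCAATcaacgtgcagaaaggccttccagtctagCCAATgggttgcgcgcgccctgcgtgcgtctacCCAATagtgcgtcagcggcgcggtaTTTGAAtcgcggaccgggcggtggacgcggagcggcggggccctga
It holds CHR cores from 167 to 162 bases before the start and at bases 5 to 10 after it, and 3 CCAAT boxes.

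Windows of that length were found for 39 of the 48 members, 43 windows in all, and not for Ccna2, Cdc25c, Wee1, Foxm1, Aurkb, Incenp, Spc24, Kif20a and Tpx2. A CHR core on either strand was present in 69.8% of the member windows, against 45.4% of 97 windows of other mitotic genes and 19.2% of all 32851 windows in the table. CCAAT was present in 74.4%, 57.7% and 37.4% of the same sets, and both elements together in 60.5%, 29.9% and 7.52%. E2F-type sites (TTTCCCGC, TTTCGCGC, TTTGCCGC or TTTGGCGC) were in 2.33% of member windows, 16.5% of windows of the other mitotic genes and 2.26% of all windows. By gene, a CHR core stood in 5 of 7 members whose groups did not overlap and in 22 of 32 whose groups did. CCAAT stood in 7 of 7 and in 21 of 32. Ccna2, Foxm1, Aurkb, Incenp and Spc24, whose groups did not overlap either, had no window and are missing from the 7. These are matches of letters and were not tested for binding.

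None of the 5 spindle checkpoint genes was called in limma, edgeR or DESeq2, 0 had an unadjusted limma p under 0.05, and in none did the groups separate. Bub3, a carrier of checkpoint proteins at the kinetochore, had the highest level per kilobase of the group and counts of 1704, 1691 and 1671 in Jmjd1c libraries, against 1718, 1657, 1556 and 1508 in control libraries. Control 1 was the highest of the 7, and the log2 fold change was 0.07 (95% interval -0.07 to 0.21; limma, adjusted p = 0.561). Bub1b, which encodes the APC/C inhibitor BUBR1, had a log2 fold change of 0.16 (-0.05 to 0.36) and Mad2l1, the protein that captures CDC20, one of 0.06 (-0.11 to 0.23). The kinases Bub1 and Ttk had 200 to 260 and 252 to 289 normalized read counts in Jmjd1c libraries, against 216 to 242 and 259 to 293 in control libraries.

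In the chromosomal passenger complex, which corrects attachments at the centromere and then moves to the spindle midzone for cytokinesis, 2 of 4 genes rose. Aurkb, its kinase (ENSMUSG00000020897; mm10 chromosome 11, 69045647 to 69051664, plus strand), had 867, 830.5 and 835 in Jmjd1c libraries, against 654, 665, 593 and 597 in control libraries. Every Jmjd1c library was above every control library. It averaged 844 ± 20.1 in Jmjd1c and 627 ± 37.3 in control libraries (SD), which is 0.43 ± 0.07 on the log2 scale (SE; limma, adjusted p = 0.0317). Incenp, the scaffold that binds and activates the kinase (ENSMUSG00000024660; chromosome 19, 9872296 to 9899551, minus strand), had 211, 258 and 243 in Jmjd1c libraries and 178, 164, 169 and 176 in control libraries. That is a difference of 0.46 ± 0.10 on the log2 scale (limma, adjusted p = 0.0474). No other annotated exon overlaps either gene. Cdca8, the Borealin subunit that holds the complex at the centromere, had 1120, 1081 and 1036 in Jmjd1c libraries and 1006, 951, 834.5 and 877 in control libraries, with no overlap and a log2 fold change of 0.24 ± 0.08 that did not pass (limma, adjusted p = 0.122). Birc5, which encodes Survivin, the subunit that reads phosphorylated histone H3, had 699, 610 and 619.9 in Jmjd1c libraries, within 526 to 669 in control libraries apart from Jmjd1c 1. Its log2 fold change was 0.06 (-0.15 to 0.26), with a sign that turned in some alternatives. Corrected for GC content and length, Aurkb had 0.43 and was still called (limma, adjusted p = 0.0406), and Incenp had 0.35 and was not (adjusted p = 0.106). Leaving out each library in turn, Aurkb ran from 0.40 to 0.46 and was called in 3 of 7 fits, and Incenp ran from 0.40 to 0.54 and was called in 1 of 7.

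The 12 genes of the APC/C and of anaphase held the other 2 limma calls and the largest fold change, in the activator Cdc20. Cdc20 (ENSMUSG00000006398; chromosome 4, 118432901 to 118437352, minus strand) had 289, 321.5 and 383 in Jmjd1c libraries, against 245, 215, 183 and 197 in control libraries. The groups were clear of each other, Jmjd1c 3 being highest and control 3 lowest. It averaged 331 ± 47.7 in Jmjd1c and 209.8 ± 26.7 in control libraries (SD), with a log2 fold change of 0.65 ± 0.12 (SE; limma, adjusted p = 0.0343). Of its exons, 53 bases lie opposite Elovl1, whose log2 fold change was 0.03; whether the counting used strand is not given in the sources used here. After the GC content and length correction Cdc20 had 0.59 (limma, adjusted p = 0.0576), and without each library in turn 0.54 to 0.75, called in 3 of 7 fits. Fzr1, the activator of late mitosis and G1, had 202, 282 and 265 in Jmjd1c libraries and 144, 175, 185 and 159 in control libraries. The difference for Fzr1 was 0.58 ± 0.13 on the log2 scale (limma, adjusted p = 0.0537), and 0.34 after that correction. Ube2c, the E2 enzyme that starts ubiquitin chains on APC/C substrates, had 561, 631 and 759.7 in Jmjd1c libraries, against 502, 501, 413 and 484 in control libraries (0.45 ± 0.11; limma, adjusted p = 0.0577). Of its exons, 592 bases lie opposite Tnnc2, which had at most 2.35 normalized read counts in any library. Fzr1 and Ube2c were both called in DESeq2 (adjusted p = 0.00808 and 0.0072). Ube2s, the E2 enzyme that extends those chains, had 32.3, 35.03 and 39.9 in Jmjd1c libraries and 30.4, 37.4, 19.8 and 23.6 in control libraries, and the groups overlapped.

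Anapc5, a scaffold subunit of the APC/C platform, was the only one of its core subunits that rose. Anapc5 (ENSMUSG00000029472; chromosome 5, 122787459 to 122821339, minus strand) had 2348, 2495 and 2659 in Jmjd1c libraries, against 1865, 2177, 1914 and 2044 in control libraries. The groups did not overlap, control 2 coming nearest. The log2 fold change was 0.32 ± 0.07 (SE; limma, adjusted p = 0.0474), 0.26 after the GC content and length correction (adjusted p = 0.0903) and 0.28 to 0.37 without each library, called in 1 of 7 fits. Per kilobase it was the third highest of the 48 in both groups, with 229 ± 15.1 in Jmjd1c and 175 ± 11.2 in control libraries. The scaffold gene Anapc1 had a log2 fold change of 0.14 (95% interval -0.01 to 0.29), the cullin subunit gene Anapc2 one of -0.02 (-0.17 to 0.13), the platform gene Anapc4 one of -0.10 (-0.28 to 0.09), the repeat-protein gene Anapc7 one of 0.23 (-0.13 to 0.58) and the substrate receptor gene Anapc10 one of -0.13 (-0.34 to 0.09). After the GC content and length correction Anapc1 had 0.06 and Anapc10 -0.01. Over the 14 APC/C subunit genes of this list and the wider mitotic list, 1 was called, the median was -0.03 and 8 were below 0. Espl1, which encodes separase, had 236, 319 and 275 in Jmjd1c libraries and 168 to 266 in control libraries (0.27 ± 0.16; limma, adjusted p = 0.363), and 0.03 on the log2 scale after the GC content and length correction. Pttg1, which encodes the separase inhibitor securin, had 215 to 236 in Jmjd1c and 214 to 270.4 in control libraries.

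The promoters of the 4 genes of this role whose Jmjd1c and control values did not overlap are shown in the same way, with CHR cores and CCAAT boxes in capitals. They lie at chr4:118437294-118437593 (minus strand), chr10:81378321-81378620 (minus strand), chr2:164769679-164769978 (plus strand) and chr5:122821293-122821592 (minus strand) of GRCm38.p6.
Cdc20: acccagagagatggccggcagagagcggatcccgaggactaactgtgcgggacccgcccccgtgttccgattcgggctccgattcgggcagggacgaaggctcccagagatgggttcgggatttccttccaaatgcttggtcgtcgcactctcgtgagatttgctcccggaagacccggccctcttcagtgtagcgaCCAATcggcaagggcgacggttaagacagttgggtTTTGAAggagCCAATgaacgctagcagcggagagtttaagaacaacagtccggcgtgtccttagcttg
Fzr1: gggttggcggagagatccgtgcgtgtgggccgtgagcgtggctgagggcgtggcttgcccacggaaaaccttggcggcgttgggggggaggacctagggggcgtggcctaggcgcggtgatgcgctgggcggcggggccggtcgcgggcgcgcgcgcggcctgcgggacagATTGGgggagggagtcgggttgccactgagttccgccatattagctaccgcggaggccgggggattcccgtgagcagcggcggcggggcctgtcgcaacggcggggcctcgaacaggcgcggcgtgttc
Ube2c: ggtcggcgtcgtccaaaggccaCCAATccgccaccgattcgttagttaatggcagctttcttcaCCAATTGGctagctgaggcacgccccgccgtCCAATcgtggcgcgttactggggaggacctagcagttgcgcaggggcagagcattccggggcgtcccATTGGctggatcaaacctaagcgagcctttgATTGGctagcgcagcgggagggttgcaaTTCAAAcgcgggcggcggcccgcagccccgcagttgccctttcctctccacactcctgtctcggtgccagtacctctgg
Anapc5: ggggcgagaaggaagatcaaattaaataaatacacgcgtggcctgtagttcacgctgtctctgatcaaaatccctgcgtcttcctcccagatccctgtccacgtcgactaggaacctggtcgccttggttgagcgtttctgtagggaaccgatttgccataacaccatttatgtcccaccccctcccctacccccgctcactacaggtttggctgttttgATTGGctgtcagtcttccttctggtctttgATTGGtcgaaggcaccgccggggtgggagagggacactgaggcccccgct
Cdc20 has a CHR core from 18 to 13 bases before the start between 2 CCAAT boxes. Fzr1 has 1 CCAAT box, on the opposite strand, and no letters of the CHR core in this window. Ube2c has a CHR core on the opposite strand from 29 to 24 bases before the start and 6 CCAAT boxes, 2 of which overlap. Anapc5 has 2 CCAAT boxes, both on the opposite strand, and no letters of the CHR core in this window.

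**Figure D2:**
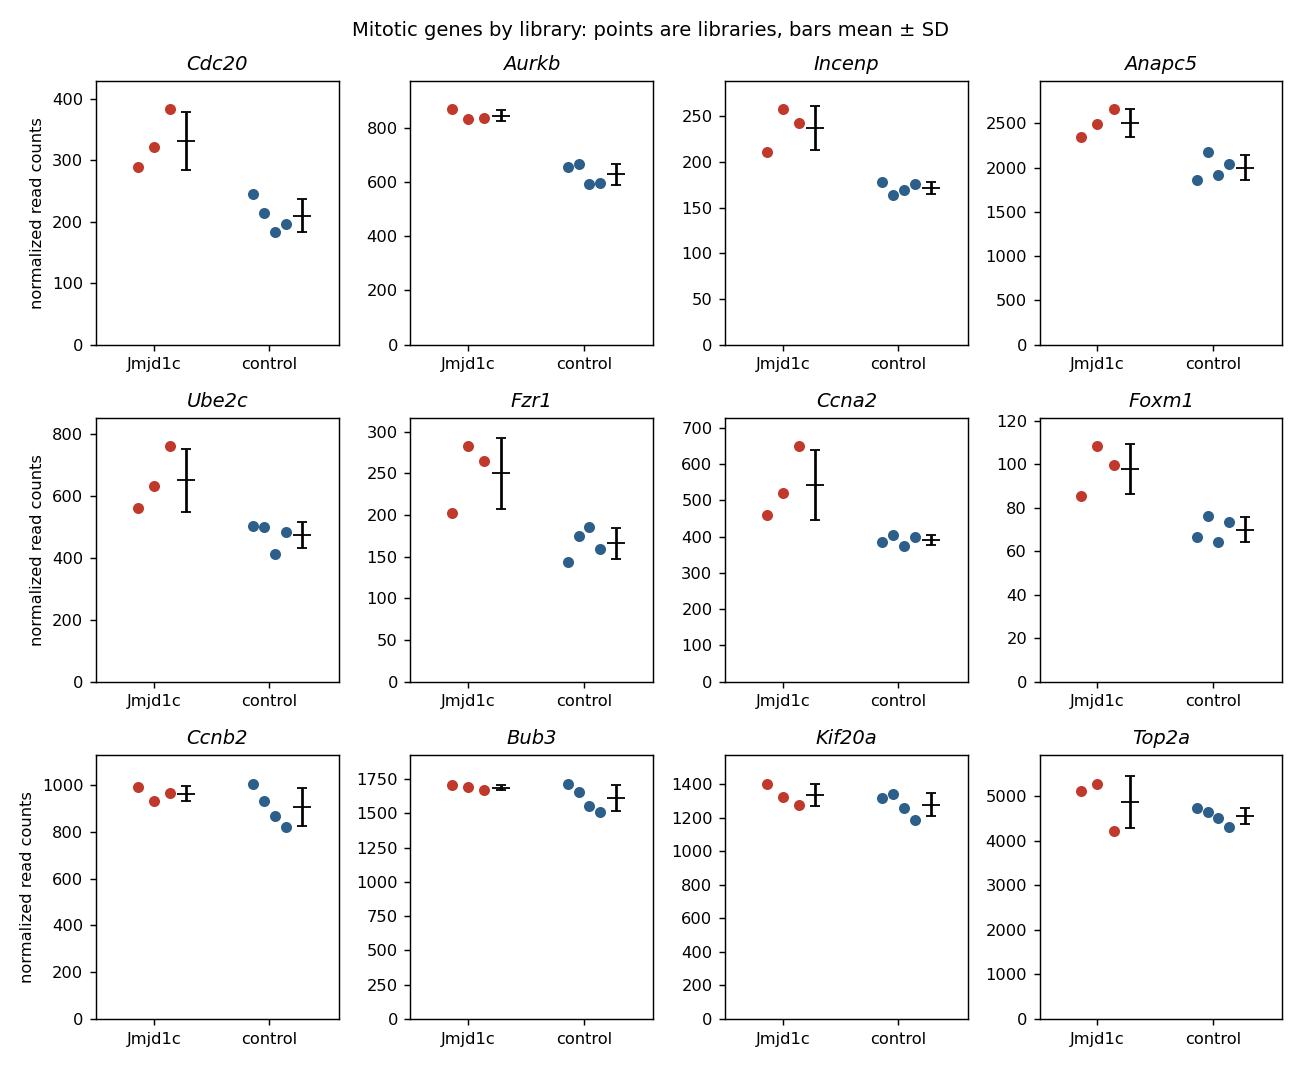
Normalized read counts of 12 member genes, with 1 point per library, Jmjd1c left of control in each panel and bars at the mean ± SD; axes start at 0. In Cdc20, Aurkb, Incenp, Anapc5, Ube2c, Fzr1, Ccna2 and Foxm1 all 3 Jmjd1c points are above all 4 control points, and in Ccnb2, Bub3, Kif20a and Top2a the points mix.

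None of the 7 kinetochore genes was called in limma, edgeR or DESeq2, and 1 (Spc24) had an unadjusted limma p under 0.05. Before the GC content and length correction, their median log2 fold change of -0.03 was the lowest of the groups. Their median transcript GC content, 42.9%, was the lowest too. With the correction Cenpa had 0.21, Spc24 0.18, Nuf2 0.17 and Spc25 0.10, and Ndc80 had -0.04, Cenpe -0.07 and Cenpf -0.17. In Spc24, a subunit of the NDC80 complex that grips microtubules, the groups were separate, with 478, 517 and 446 in Jmjd1c libraries and 401, 434.5, 437 and 430.2 in control libraries. The difference was small (0.17 ± 0.08; limma, adjusted p = 0.247). Its partners in the same complex did not separate. Ndc80 had a log2 fold change of -0.12 (95% interval -0.34 to 0.11), and -0.04 after the GC content and length correction, and Nuf2 and Spc25 had 383 to 466 and 505 to 569 in Jmjd1c libraries, against 377 to 442 and 484 to 615 in control libraries. Cenpa, the histone H3 variant that marks the centromere, had 386, 414 and 513 in Jmjd1c libraries and 318 to 415 in control libraries (0.21 ± 0.12; limma, adjusted p = 0.343). The motor gene Cenpe had -0.08 (-0.28 to 0.11) and Cenpf, a protein of the outer kinetochore in G2 and M phase, had -0.16 (-0.35 to 0.04).

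The 8 genes of the spindle and of cytokinesis had a median of 0.08 and no call in limma, edgeR or DESeq2, and 0 had an unadjusted limma p under 0.05. Kif11, the motor that pushes spindle poles apart, was the one whose groups did not overlap, with 879, 924 and 904 in Jmjd1c libraries and 834, 825.5, 853 and 783.5 in control libraries (0.13 ± 0.06; limma, adjusted p = 0.269), and 0.20 after that correction. Kif20a, a kinesin of the midzone that brings the passenger complex there, had the highest level per kilobase of this group, with counts of 1403, 1323 and 1274 in Jmjd1c libraries and 1315, 1343, 1259 and 1187 in control libraries. Its groups overlapped (0.06; 95% interval -0.08 to 0.21), and 1271 of its exon bases lie opposite Cdc23, whose log2 fold change was -0.06. Ect2, the exchange factor that starts the cleavage furrow, had 0.14 (-0.02 to 0.30), or 0.25 after the correction, and Tpx2, the activator of Aurora A on the spindle, 0.12 (-0.03 to 0.27). Kif23, Kif2c, Prc1 and Hmmr had 665 to 832, 399.8 to 526, 1208 to 1381 and 432 to 494 in Jmjd1c libraries, each overlapping the control values of 718 to 826, 386 to 507, 1174 to 1402 and 437 to 499.

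The proliferation markers of the list, both proteins of mitotic chromosomes, did not pass. Top2a, the topoisomerase that untangles sister chromatids, had 5106, 5281 and 4209 in Jmjd1c libraries, against 4726, 4651, 4518 and 4313 in control libraries. Jmjd1c 3 was the lowest and Jmjd1c 2 the highest of all 7, and the log2 fold change was 0.09 (95% interval -0.08 to 0.26; limma, adjusted p = 0.561). Mki67, which encodes the Ki-67 antigen, had 564, 605 and 557 in Jmjd1c libraries and 516 to 630 in control libraries (0.05; interval -0.13 to 0.23), a sign that turned after the GC content and length correction. Top2a followed Ccnb2 in level per kilobase, at 302 ± 39.6 in Jmjd1c and 271 ± 16.6 in control libraries, and its promoter holds 4 CHR cores and 6 CCAAT boxes, again in capitals, at chr11:99024140-99024439 on the minus strand of GRCm38.p6.
Top2a: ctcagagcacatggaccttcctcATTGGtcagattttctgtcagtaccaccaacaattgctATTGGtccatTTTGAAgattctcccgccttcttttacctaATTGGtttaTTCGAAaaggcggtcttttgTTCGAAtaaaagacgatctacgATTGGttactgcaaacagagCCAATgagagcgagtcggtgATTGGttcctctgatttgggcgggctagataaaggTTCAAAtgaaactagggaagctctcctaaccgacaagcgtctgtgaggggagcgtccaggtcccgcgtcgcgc

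**Figure D3:**
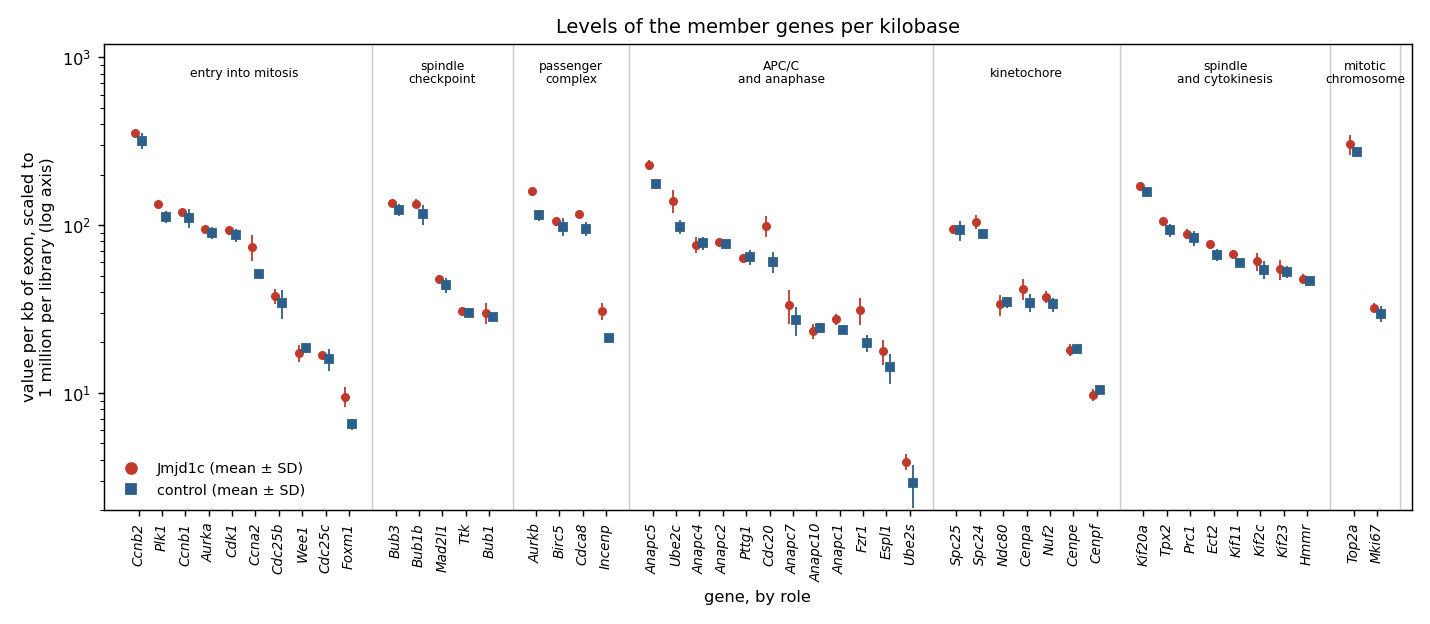
Mean level of each member per kilobase of exon, scaled to 1000000 per library, on a log axis with bars of 1 SD, Jmjd1c (circles, left) beside control (squares, right) and genes ordered within their role by the control level. Levels span from Ube2s, at 3.89 in Jmjd1c and 2.90 in control libraries, to Ccnb2, at 352 in Jmjd1c and 318 in control libraries.

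The highest levels were those of the same genes in both groups of libraries. After Ccnb2, Top2a and Anapc5 came Kif20a, with 172 ± 8.31 per kilobase in Jmjd1c and 158 ± 11.5 in control libraries, and Aurkb in Jmjd1c libraries, with 160 ± 2.96, against 114 ± 8.56 in control libraries. In control libraries Bub3 (123 ± 9.76), Bub1b (116 ± 16.1), Aurkb, Plk1 (112 ± 9.504) and Ccnb1 (110.3 ± 14.4) followed in that order, and neighbours differed by less than their SDs. Foxm1, at 9.52 ± 1.303 in Jmjd1c and 6.52 ± 0.47 in control libraries, and Ube2s were lowest in both, and Ube2s shares 183 exon bases with the opposite strand of Rpl28. Ccnb1 has processed pseudogenes of near-identical sequence, of which Ccnb1-ps averaged 2.55 normalized read counts in Jmjd1c and 2.46 in control libraries, so reads of the gene may be split or lost in counting.

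**Figure D4:**
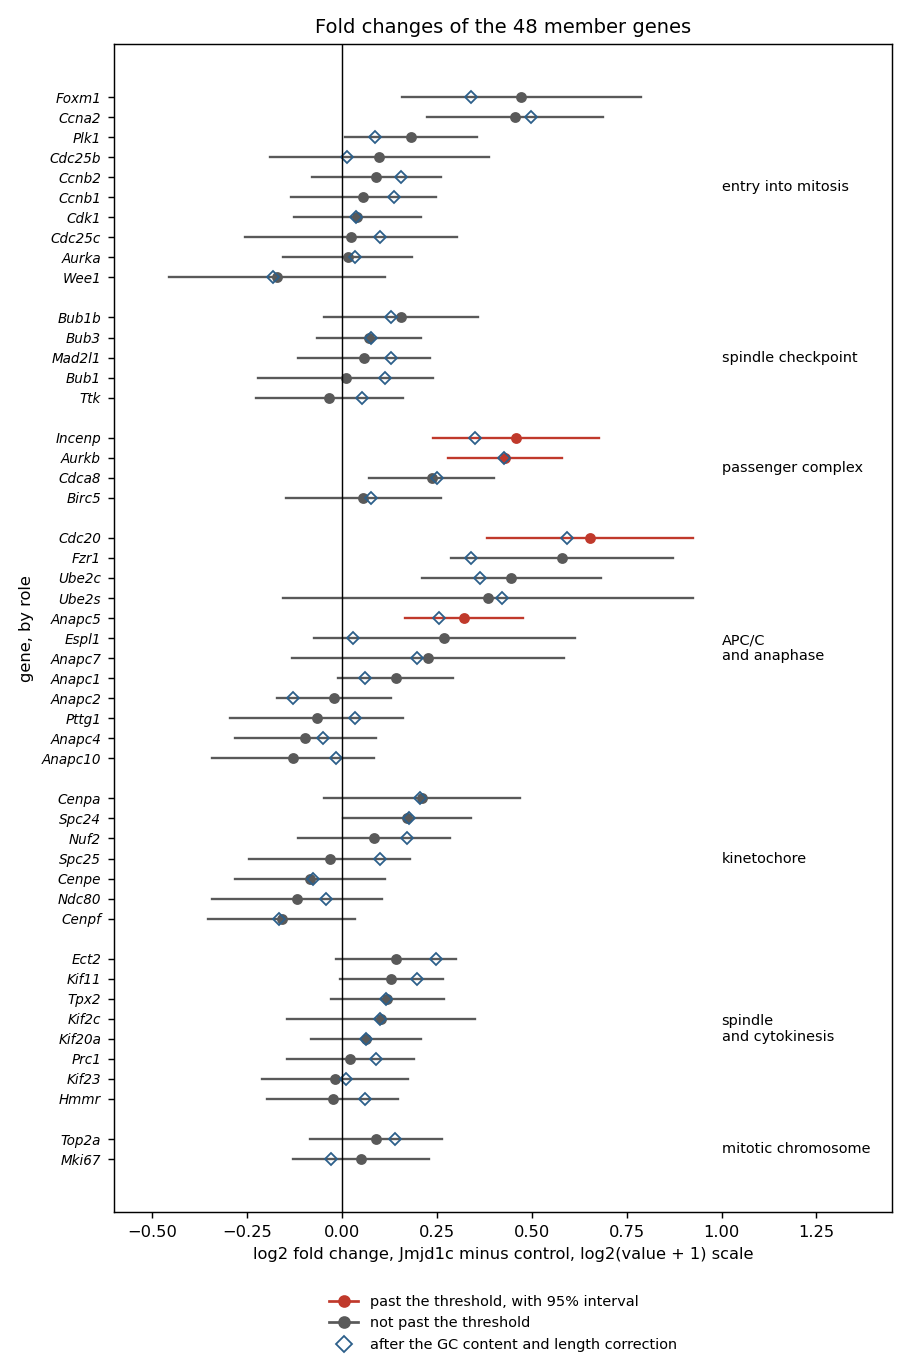
Log2 fold change of each of the 48 genes, Jmjd1c minus control, with its 95% interval from limma, red where the gene passed the threshold; open diamonds are the values after the GC content and length correction. Cdc20, Incenp, Aurkb and Anapc5 are red, and all kinetochore and checkpoint genes are grey.

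Transcript GC content moved with these differences. The median GC content was 53.9% for the 4 called members and 46.7% for the other 44, 53.8% for the 12 without overlap and 46.2% for the other 36, and 55.4% for all 194 genes called higher, against 49.4% for all tested genes. When each library was corrected for GC content and length, 1 member, Aurkb, was called, 40 of 48 members were above 0 and their median was 0.10. Ccna2, with 46.1% GC, had 0.50 after that correction (limma, adjusted p = 0.064), and Fzr1, with 59.9%, had 0.34 against 0.58 before it.

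**Figure D5:**
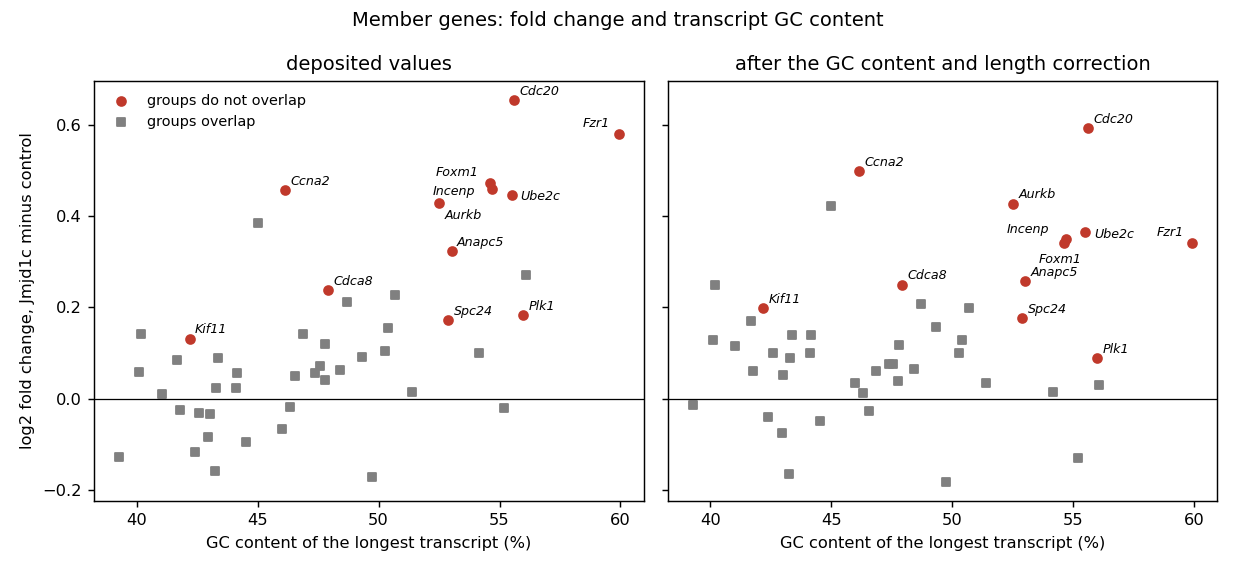
Log2 fold change, Jmjd1c minus control, against the GC content of the longest transcript for the 48 genes, from the deposited values (left) and after the correction (right); red circles are genes whose groups did not overlap in the deposited values. Of the red circles, Ccna2, Cdca8 and Kif11 lie below the 49.4% median of all tested genes and the others above it, and Fzr1, Foxm1, Incenp and Plk1 come down in the right panel.

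A wider list of 100 other mitotic genes, all tested, was set beside the 48. In it 2 genes (2%) rose, a share near the 1.51% of all tested genes, and 0 fell; 67 were above 0 and the median was 0.04. Pkmyt1, the membrane-bound kinase that inhibits CDK1, had 143, 212 and 224 in Jmjd1c libraries and 102, 116, 90.9 and 90.1 in control libraries, which is 0.93 ± 0.16 on the log2 scale (limma, adjusted p = 0.0328); 319 of its exon bases lie opposite Paqr4. Mybl2, which encodes B-MYB, had 77.8, 91.7 and 111.5 in Jmjd1c libraries and 44.8, 57.9, 50.1 and 61.2 in control libraries (0.79 ± 0.18; limma, adjusted p = 0.0481). Both were separate between groups and both belong to the 20 genes of entry and G2/M transcription. After the GC content and length correction neither was called, with 0.77 and 0.64 on the log2 scale. In the list 14 genes (14%) had every Jmjd1c library above every control library and 2 had every one below. Over all tested genes these shares were 9.74% above and 7.1% below.

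In the remaining parts of that list 0 genes were called in limma, edgeR or DESeq2, and the unadjusted limma p was under 0.05 for 4 of 17 condensin and cohesin genes, 2 of 18 spindle and cytokinesis genes and 1 of 26 centromere genes, beside 19.7% of all tested genes. Cenpm, a protein of the inner kinetochore, came nearest, with 368, 382 and 360.5 in Jmjd1c libraries and 290.3 to 310.2 in control libraries (0.31 ± 0.08; limma, adjusted p = 0.0597). The other 25 inner kinetochore and centromere genes included Pmf1 (0.13) and Ska2 (-0.14), and the median of the 26 was 0.01. Among 18 genes of spindle motors and cytokinesis, the citron kinase gene Cit had 0.35, the kinesin Kif18b 0.34 and the minus-end motor Kifc1 0.65, at 27.0 to 30.9 normalized read counts in Jmjd1c and 11.4 to 23.2 in control libraries. The condensin subunits Ncapd2 and Ncapg2, which compact mitotic chromosomes, had 0.28 each and Cdca5, which encodes the cohesin protector sororin, 0.20. The 8 condensin genes had a median of 0.11 with 7 above 0. Of the genes of the checkpoint and of cohesion protection, Trip13 had 0.23, Haspin 0.24 and Mad1l1 0.10. Of the other APC/C genes, Cdc26 had -0.18, Anapc15 -0.23 and Cdc27 0.17. After the GC content and length correction Cit had 0.10, Kif18b 0.23, Ncapd2 0.16, Ska2 -0.02, Mad1l1 -0.03 and Cdc27 0.28. Of the others named here, Cenpm had 0.28, Pmf1 0.18, Kifc1 0.53, Ncapg2 0.32, Cdca5 0.21, Trip13 0.28, Haspin 0.22, Cdc26 -0.17 and Anapc15 -0.24. None of these genes passed, their limma adjusted p-values running from 0.0597 to 0.481.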

How the data were processed

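Bulk RNA-seq of 3 Jmjd1c and 4 control libraries was analysed from a deposited table of signal values per gene, in which the authors had divided read counts by a size factor for each library. RNA was prepared with Trizol and the SMARTer ultra-low-input kit, per the labels' protocols. Trim Galore 0.2.8, STAR, HTSeq 0.6.1p1, DESeq 1.18.0 and mm10 are named in the submitters' processing notes. Neither annotation release, strand setting nor filters of the counting are given in these sources. Within each library the deposited signal was a whole multiple of a step between 0.80 and 1.21, and division by it gave whole reads for 100% of values above 0 at a tolerance of 0.01. Symbols were matched for 37607 of 39179 IDs, and exon lengths, overlaps and GC content came from GENCODE M21.

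The test was limma-trend (limma 3.58.1, R 4.3.3) on log2(value + 1), with no further scaling or covariate, for genes that reached 10 in 3 or more libraries. Fold changes on this scale understate those of low genes. The recovered reads were also tested with the quasi-likelihood test of edgeR 4.0.16 with TMM scaling, and with DESeq2 1.42.0. For Jmjd1c the two-sided exact permutation p was 0.0286, the smallest that 35 splits allow. The GC content and length correction fitted a loess curve in each library to the deviations from gene means. Lists are described by counts and medians without a test. Only the limma test was tried on simulated counts with known fold changes.

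Members and lists were chosen with earlier results of these data known. Values in every library are given for members that passed the threshold or whose groups did not overlap and for the highest member per kilobase of each role; of the wider list, genes past the threshold, or the 3 smallest p-values of a sub-list where none passed. Other values are given as ranges or were chosen after they were seen.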

Additional observations from a re-analysis of the deposited data

Results flagged for a closer look

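Single control libraries were compared with the other 3 by the gap to the nearest divided by the range of the 4, for 66 genes and 17 lists; chance marks about 1 in 20 such groups. Cdca5, which encodes sororin, had 375.1 normalized read counts in control 4, against 412.6 to 418.4 in the other control libraries, a gap of 0.866 of the range. The macrophage markers summed to 9352 in control 4, against 2331 to 3314 in the others (0.86 of the range). The T and NK cell markers summed to 2515 in control 1, against 2229 to 2256 in the others (0.906). Control 4 was also the library with the lowest median of the 48 mitotic genes, and without it Cdc20 and Aurkb were the 2 members called.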

How the results depend on the processing

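The members' median log2 fold change was above 0 in every alternative run, from 0.04 (replicates 1 to 3 alone, with or without the replicate block) to 0.11 (without control 1). Calls were less stable. With all 231 genes, 4 members and 2 other mitotic genes called as reported, limma without the intensity trend called 0 of each, with 2213 genes and 9 members at an unadjusted p under 0.05, and Jmjd1c, at -0.89, had an adjusted p of 0.117. The GC content and length correction left 48 genes, 1 member and 0 other mitotic genes, TMM scaling left 1 other mitotic gene, and replicates 1 to 3 alone left 2 members. DESeq2 called 590 genes and 7 members, and a threshold of 0.1 called 716 genes, 7 members and 4 other mitotic genes. Without each library in turn, 3 to 624 genes, 0 to 7 members and 0 to 3 other mitotic genes were called in limma. The cause of these changes was not tested.

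The replicate block, fitted on replicates 1 to 3, called 16 genes, 0 members (9 at an unadjusted p under 0.05) and 0 other mitotic genes, and with the GC content and length correction 34, 0 (10) and 0. Same-numbered libraries correlated at -0.15, -0.0021 and 0.02 in their deviations from group means. No Jmjd1c library correlated best with the control library of its own number, so the numbers were not taken as pairs.

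Of the mitotic genes chosen for this check, signs turned for 7 that had not passed the threshold, on the log2 scale. Members outside the check were not counted, and signs turned among them too. Without each library, Bub1 ran from -0.0706 to 0.1183 and Kif23 from -0.0784 to 0.0831. Birc5 had -0.0189 under the replicate block and with replicates 1 to 3 alone, -0.0061 under the replicate block with the GC content and length correction, and -0.0189 to 0.0959 without each library. Ccnb1 had -0.0087 under the replicate block and with replicates 1 to 3 alone, and -0.0087 to 0.1161 without each library. Aurka had -0.0028 after quantile normalization, -0.0030 with array weights, -0.0280 under the replicate block and with replicates 1 to 3 alone, -0.0208 under the block with the correction, and -0.0280 to 0.0468 without each library. Mki67 and Mad1l1 had -0.0278 and -0.0314 after the correction, and -0.0545 and -0.0646 with the block added. Espl1, at 0.27 as reported, had -0.1122 under the block with the correction, and Anapc2 -0.0419 to 0.0030 without each library.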
